A study of Mus musculus with 26 samples.

Results

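The small RNA libraries of control mice were compared between the dorsal (dHC) and the ventral (vHC) hippocampus. Members were the table columns of control samples, 6 of dHC and 8 of vHC, which made 14 of the 26 libraries in the table, and all annotated miRNAs, tRNAs and rRNAs were described. All mice were male C57BL/6J of 2 to 3 months, and tissue came from both hemispheres. Control mice stayed in the home cage. The other 12 libraries, 6 per region, came from mice exposed to a 6 min swim in water of 18 °C and killed 45 min after its start, and they were used here as separate samples of the same 2 regions. RNA was extracted with Trizol and libraries were made with the NEXTflex small RNA kit. The labels do not say which dHC and vHC libraries came from 1 mouse, so p-values measure the spread between these libraries.

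The dorsal and ventral poles of the hippocampus differ in their connections. The dorsal pole is known for its role in spatial memory, and the ventral pole for its links to the amygdala and hypothalamus and its role in emotional behaviour. miRNAs are short RNAs cut from hairpin precursors, which bind messenger RNAs mainly through the bases of the seed and reduce their stability or translation. Many are transcribed together from clusters or from introns of host genes, so that members of a cluster can share a promoter, and miRNAs with the same seed share predicted targets.

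The sequences of the miRNAs on which the results turn are shown here from RefSeq on GRCm38.p6, 5′ to 3′, with the seed (bases 2 to 8) in capitals. The table does not separate the arms of a hairpin, so 1 arm is shown for each. The first set holds miRNAs that were lower in dHC, with the mir-200 and mir-7 families to show their shared or near seeds. Of the mir-200 family, mir-141 was not called.
miR-184-3p: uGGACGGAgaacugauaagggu
miR-1247-5p: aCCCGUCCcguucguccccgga
miR-200b-3p: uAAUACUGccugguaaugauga
miR-200c-3p: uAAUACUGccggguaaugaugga
miR-429-3p: uAAUACUGucugguaaugccgu
miR-200a-3p: uAACACUGucugguaacgaugu
miR-141-3p: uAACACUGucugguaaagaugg
miR-7a-5p: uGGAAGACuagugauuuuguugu
miR-7b-5p: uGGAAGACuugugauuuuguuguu
miR-433-3p: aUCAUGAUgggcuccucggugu
miR-541-5p: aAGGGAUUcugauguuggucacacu
miR-770-5p: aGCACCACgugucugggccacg

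The second set holds miRNAs that were higher in dHC, grouped by seed, which are the mir-15/16 family, the mir-17 family, the mir-34 and mir-449 family and the pair of mir-204 and mir-211, and the oligodendrocyte miRNAs mir-219a and mir-338.
miR-15a-5p: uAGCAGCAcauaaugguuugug
miR-16-5p: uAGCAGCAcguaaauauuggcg
miR-195a-5p: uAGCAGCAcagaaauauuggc
miR-17-5p: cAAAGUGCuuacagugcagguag
miR-93-5p: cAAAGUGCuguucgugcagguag
miR-106b-5p: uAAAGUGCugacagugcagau
miR-34b-5p: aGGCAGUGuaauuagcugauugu
miR-449a-5p: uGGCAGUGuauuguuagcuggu
miR-204-5p: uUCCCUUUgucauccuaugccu
miR-211-5p: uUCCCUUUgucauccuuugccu
miR-219a-5p: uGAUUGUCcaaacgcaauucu
miR-338-3p: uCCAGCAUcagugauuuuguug

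The third set holds the tested miRNAs of the introns of Htr2c, the serotonin receptor 2C gene, whose seeds all differ. mir-1912 of the same introns was not tested and is not shown.
miR-448-3p: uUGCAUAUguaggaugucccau
miR-764-5p: gGUGCUCAcauguccuccu
miR-1264-3p: cAAAUCUUauuugagcaccugu
miR-1298-5p: uUCAUUCGgcuguccagaugua

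Total miRNA counts ranged from 465387 to 3929781 per control library, and the lowest total belonged to control dHC 24. miRNAs made up 88.3% to 92.8% of the counts in each control library. The neuronal miRNA mir-124 was among the 5 most abundant miRNAs, with mir-9, mir-26a, mir-128 and mir-125b. The summed level of 10 neuronal miRNAs lay between 193651 and 348672 CPM (normalised counts per 1000000 miRNA counts) in dHC and between 219809 and 282937 CPM in vHC, and mir-1, mir-122, mir-133a, mir-206 and the other listed miRNAs of liver and muscle summed to between 747 and 1351 CPM. Libraries were prepared in 3 blocks, and every block held both regions. Control dHC 8 and control dHC 14, the only control dHC libraries of block 1, stood apart in miRNAs of the choroid plexus. In these libraries mir-204, a miRNA abundant in choroid plexus, was at 3419 and 3099 CPM, against 1413 to 1735 CPM in the other 4 control dHC libraries. Results that rest on them are given below with and without them.

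Of the 962 miRNAs in the table, 378 passed the filter on low counts, and these held 99.96% of all miRNA counts. Between control dHC and control vHC, 93 of them (24.6%) differed (adjusted p under 0.05, quasi-likelihood test of edgeR with block as a covariate). In dHC, 33 (8.73%) were higher and 60 (15.9%) were lower. The median change was 1.51-fold among the higher and 1.62-fold among the lower miRNAs, and only 4 and 9 of them reached 2-fold. The median difference over all 378 miRNAs was 0.02 on the log2 scale, with a median SE of 0.15. The split between directions depended on the scaling of the libraries: with DESeq2 size factors it was 54 higher and 55 lower, with upper quartile scaling 83 and 49, and with library size alone 29 and 53. Upper quartile scaling moved the median of all miRNAs to 0.14. All 93 miRNAs kept their direction under each of 5 other scalings, and 76 of them (28 higher and 48 lower) passed the test under every one. The libraries of the 2 regions did not overlap at all for 28 miRNAs (7.41%), 3 higher and 25 lower in dHC, all of them among the 93. In bulk tissue, fewer cells of a type and less of a miRNA per cell cannot be told apart.

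**Figure D1:**
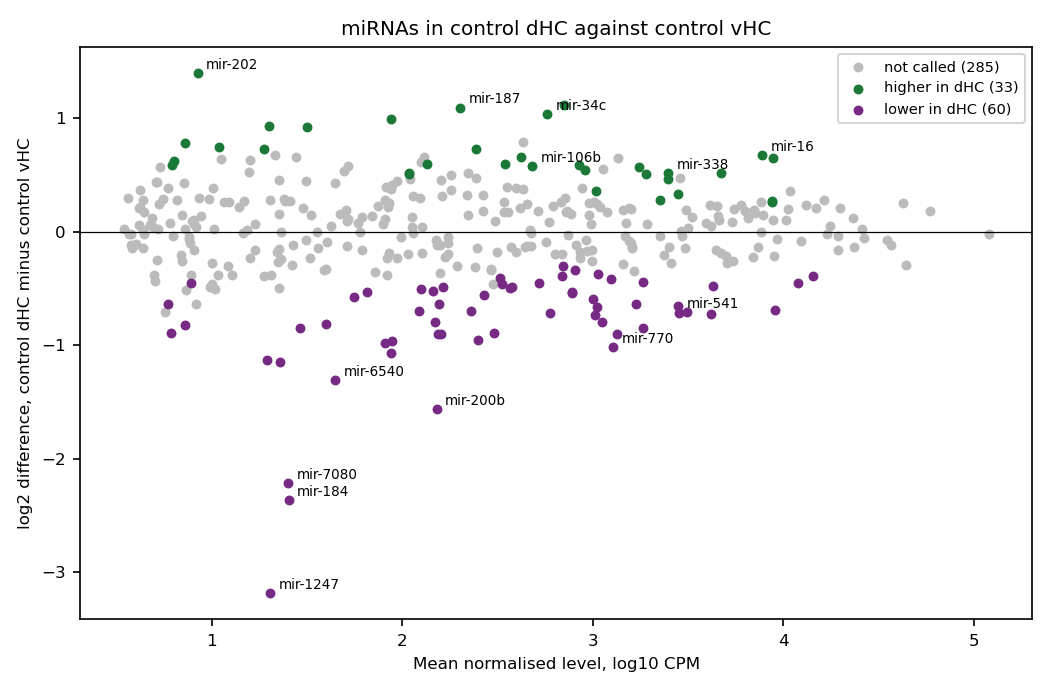
Each point is 1 of the 378 tested miRNAs; the x axis gives its mean normalised level in log10 CPM and the y axis its log2 difference, control dHC minus control vHC, with miRNAs past the adjusted p in green (33 higher in dHC) and purple (60 lower). The largest differences, those of mir-1247, mir-184 and mir-7080, lie below 0, and the highest point is mir-202 at 1.40.

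The strongest differences were those of miRNAs found mostly in the ventral pole. mir-184 (chr9:89802260-89802328) lay between 5.07 and 12.5 CPM in control dHC (median 8.26) and between 31.5 and 49.8 CPM in control vHC (median 43.0). Every vHC library was above every dHC library, and the log2 difference was -2.36 (SE 0.17, adjusted p = 7.69e-08). mir-1247, which lies in an exon of the imprinted non-coding gene Dio3os (chr12:110278048-110278129), was found between 2.19 and 7.47 CPM in control dHC (median 3.42) and between 20.4 and 48.8 CPM in control vHC (median 37.2). No dHC library reached the lowest vHC library, and at -3.19 (SE 0.27, adjusted p = 3.13e-07) this was the largest difference of any miRNA tested. mir-7080, which overlaps an annotated exon of Cpne7 (chr8:123130106-123130172), was between 5.33 and 13.8 CPM in control dHC (median 8.04) and between 28.7 and 55.3 CPM in control vHC (median 42.7). It too separated the regions in full, with a log2 difference of -2.22 (SE 0.20, adjusted p = 7.41e-07).

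mir-6540, in an intron of Gap43, the gene of a growth cone protein (chr16:42303362-42303469), was between 22.3 and 27.9 CPM in control dHC (median 26.8) and between 49.5 and 76.3 CPM in control vHC (median 61.7). The dHC libraries lay close together and below all vHC libraries, and the difference was -1.30 (SE 0.13, adjusted p = 1.88e-06). mir-3475 on the X chromosome (chrX:140310948-140311012) was between 40.8 and 66.7 CPM in control dHC (median 56.1) and between 95.96 and 143 CPM in control vHC (median 119), again without overlap, and differed by -1.07 (SE 0.12, adjusted p = 1.41e-05). For mir-383, in an intron of Sgcz, a sarcoglycan gene, the libraries ranged between 149.6 and 273 CPM in control dHC (median 246) and between 253 and 538 CPM in control vHC (median 389). These ranges overlapped, yet the difference within blocks was -0.89 (SE 0.11, adjusted p = 1.50e-05). Other miRNAs without overlap were mir-31, mir-708 in an intron of the teneurin gene Tenm4, and mir-592 at an annotated exon of the glutamate receptor gene Grm8. Their log2 differences were -0.96 (adjusted p = 7.80e-05), -0.91 (adjusted p = 7.80e-05) and -0.70 (adjusted p = 0.000377). mir-335, in an intron of the imprinted gene Mest, overlapped between regions and differed by -0.71 (SE 0.13, adjusted p = 0.000651). Of 3 miRNAs with the seed of mir-148a, that miRNA and mir-152 were lower, with -0.45 (adjusted p = 0.0162) and -0.45 (adjusted p = 0.0368), and neither was called without control dHC 8 and 14 (edgeR adjusted p = 0.135 and 0.110). The call of mir-148a was also lost without vHC 25 (adjusted p = 0.0562), and that of mir-152 without any 1 of dHC 14, 24 and 32 and vHC 7, 17 and 25 (adjusted p = 0.0543 to 0.117).

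The mir-200 family is known from epithelia and from sensory and neuroendocrine cells, and 4 of its 5 tested members were lower in dHC, with a median log2 difference of -0.98. mir-200b was between 46.6 and 122 CPM in control dHC (median 63.0) and between 179.5 and 296 CPM in control vHC (median 228). The 2 regions did not overlap, and the difference was -1.56 (SE 0.19, adjusted p = 2.42e-05). Its cluster neighbours mir-200a and mir-429 were also lower, with -0.97 (adjusted p = 0.00132) and -0.98 (adjusted p = 0.00297). From the second cluster of the family, on chromosome 6, mir-200c passed the test with -1.15 (adjusted p = 0.000250) and mir-141 did not, with -0.71 (adjusted p = 0.0822). All 3 tested miRNAs with the seed shown for mir-200b were lower in dHC.

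Both members of the mir-7 family, which is abundant in neuroendocrine cells and has near-identical members, were lower in dHC. mir-7b was between 2247 and 3925 CPM in control dHC (median 3551) and between 4014 and 7439 CPM in control vHC (median 4668), with no overlap, and differed by -0.73 (SE 0.10, adjusted p = 7.75e-05). mir-7a, counted over its precursor copies, differed by -0.69 (SE 0.10, adjusted p = 7.80e-05). Their sequences share the seed and most other bases, so that counts could be split between them.

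**Figure D2:**
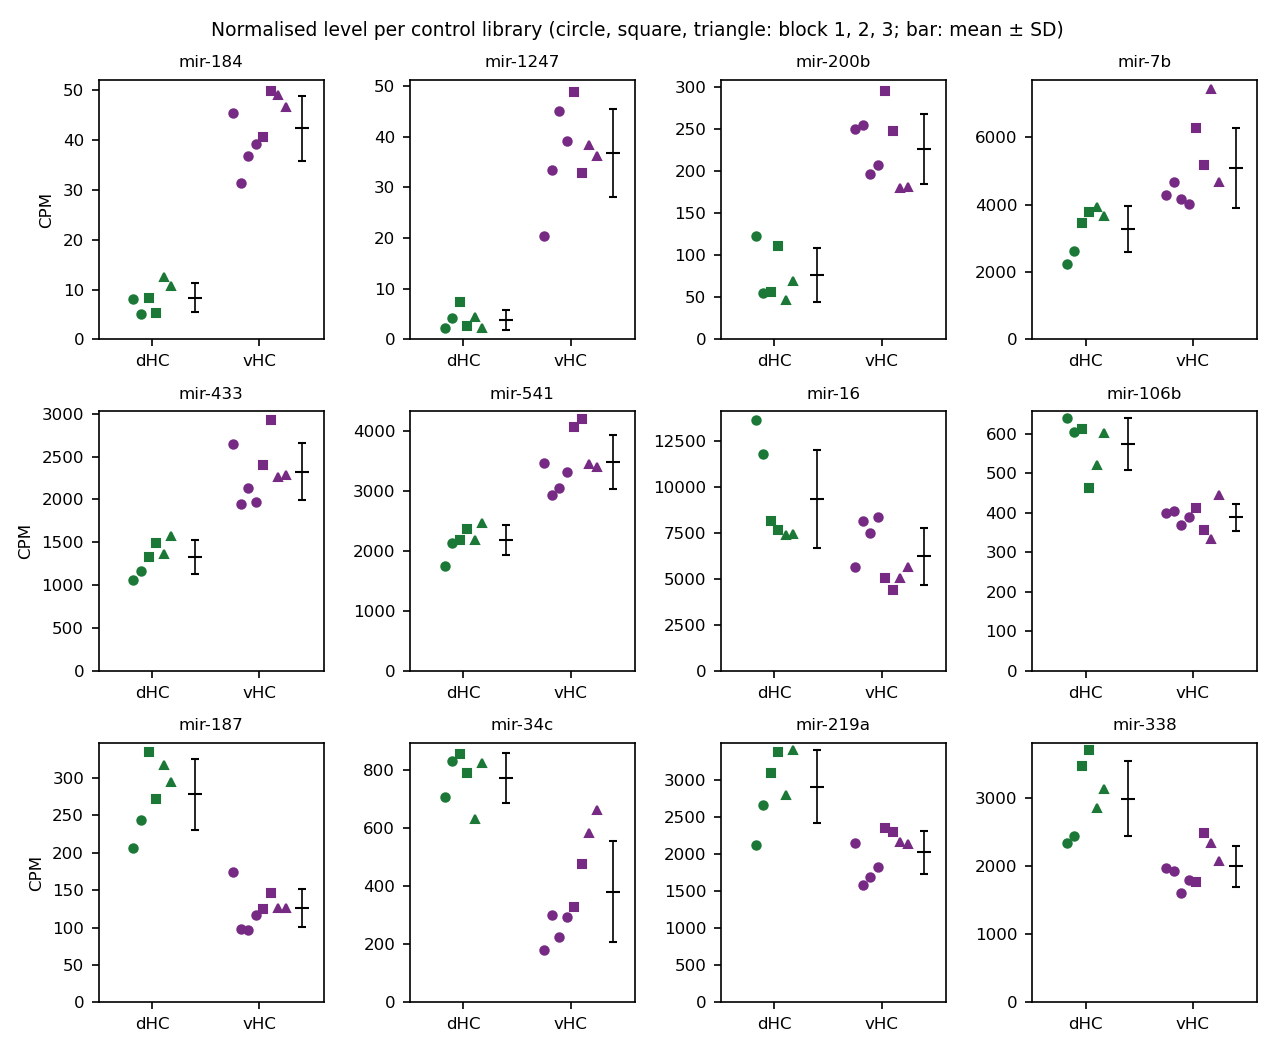
Normalised level (CPM, y axis from 0) of 12 miRNAs in each of the 6 control dHC (green) and 8 control vHC libraries (purple), with markers for the block and a bar for the mean ± SD of each region. The regions do not overlap for mir-184, mir-1247, mir-200b, mir-7b, mir-433, mir-541, mir-106b and mir-187, and they overlap for mir-16, mir-34c, mir-219a and mir-338.

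The largest group of miRNAs lower in dHC came from the part of the imprinted domain on chromosome 12 that runs from Meg3 to Mirg. Its miRNAs are expressed from the maternal chromosome. The stretch between mir-770 and mir-3072 (chr12:109563692-109747960) was chosen after the values were seen and is called the domain below. In it, 49 miRNAs were tested, of which 23 were lower (46.9%), 1 was higher and 42 had a difference below 0. The median difference was -0.37 on the log2 scale. Of the other 329 miRNAs, 37 were lower (11.2%) and 32 higher, with a median of 0.07. mir-1247, in the imprinted gene Dio3os farther along the chromosome, was counted among these 329. The summed level of the domain lay between 6.74% and 7.502% of miRNA counts in dHC and between 8.08% and 9.92% in vHC, so that the regions did not overlap. Under the 5 other scalings, 20 to 23 of these miRNAs were lower.

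The group at the Meg3 end of the domain had 9 of 11 tested members lower in dHC and none higher, with a median of -0.49. Only part of this group lies opposite the gene Rtl1 and matches the Rtl1 transcript. mir-433 (chr12:109591715-109591838) was between 1057 and 1573 CPM in control dHC (median 1351) and between 1953 and 2933 CPM in control vHC (median 2273). These ranges were apart, with a difference of -0.85 (SE 0.10, adjusted p = 1.41e-05). mir-127, of the same group and with a role in repressing Rtl1, was between 6663 and 13318 CPM in control dHC (median 12211) and between 9027 and 18748 CPM in control vHC (median 12618); the libraries overlapped and the difference was -0.46 (SE 0.08, adjusted p = 0.000478). mir-434 differed by -0.39 (adjusted p = 0.00570) and mir-493, upstream of it, by -0.79 (adjusted p = 0.000338).

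In the downstream cluster from mir-379 to mir-410, 12 of 36 tested members were lower and 1 was higher, with a median of -0.26. mir-541 was between 1748 and 2467 CPM in control dHC (median 2185) and between 2932 and 4197 CPM in control vHC (median 3423), and mir-382 was between 1938 and 2415 CPM in control dHC (median 2207) and between 2977 and 3681 CPM in control vHC (median 3464). Both separated the regions, with differences of -0.71 (SE 0.08, adjusted p = 1.41e-05) and -0.65 (SE 0.08, adjusted p = 2.32e-05). mir-323, mir-409, mir-412, mir-543 and mir-668 were also without overlap, with differences of -0.74, -0.64, -0.70, -0.67 and -0.54. mir-485 overlapped between regions and differed by -0.80 (SE 0.11, adjusted p = 5.91e-05). The exception was mir-299a, which lay between 107 and 139 CPM in control dHC (median 129.7) and between 71.1 and 113 CPM in control vHC (median 87.5) and was higher in dHC by 0.51 (SE 0.13, adjusted p = 0.00543). At the Meg3 end, mir-770 in an exon of Meg3 was between 713 and 1074 CPM in control dHC (median 790.4) and between 1275 and 2187 CPM in control vHC (median 1660.4). It showed the largest fall between mir-770 and mir-3072, -1.02 (SE 0.14, adjusted p = 4.59e-05). Without control dHC 8 and 14, 16 members of the domain were lower and the median was -0.34; mir-299a was then at 0.44 (edgeR adjusted p = 0.111), mir-434 at -0.28 (adjusted p = 0.208) and mir-341 at -0.33 (adjusted p = 0.221). The call of mir-341 was lost without dHC 8 alone (edgeR adjusted p = 0.0520).

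**Figure D3:**
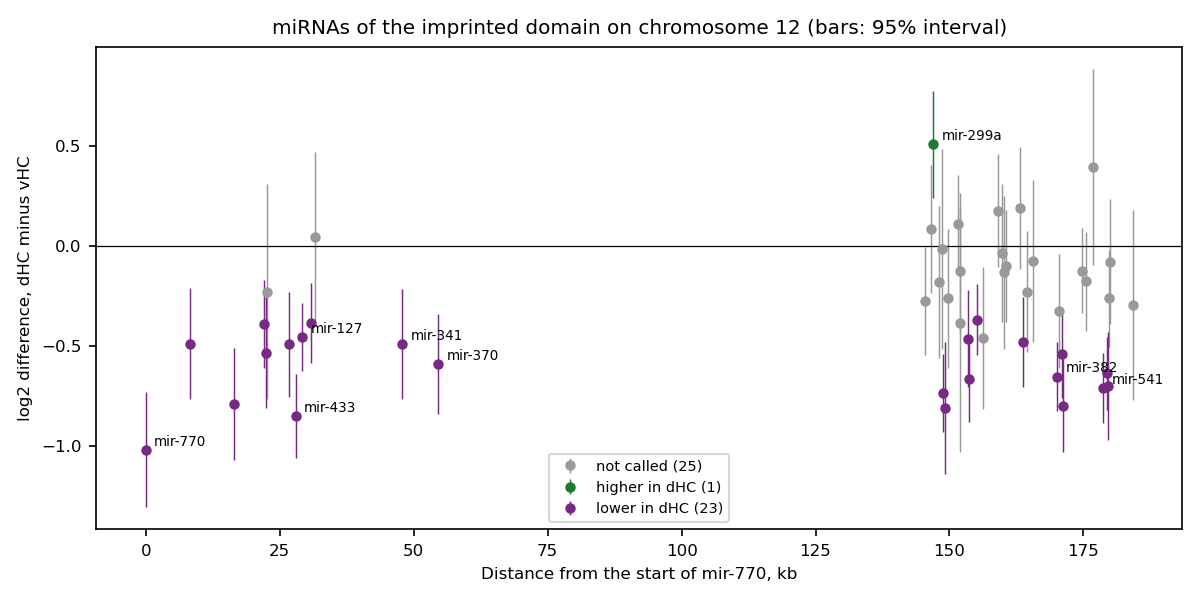
Log2 difference, control dHC minus control vHC, with its 95% interval, for the 49 tested miRNAs of the imprinted domain, against the distance in kb from the start of mir-770. Of these, 23 (purple) were lower in dHC and lie both near mir-770 and in the downstream cluster, and mir-299a (green) was the 1 miRNA that was higher.

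Among the miRNAs higher in dHC, mir-187 had the smallest p. It was between 207 and 335 CPM in control dHC (median 283) and between 97.1 and 174 CPM in control vHC (median 125), without overlap, and differed by 1.09 (SE 0.15, adjusted p = 3.56e-05). The other 2 higher miRNAs without overlap were mir-106b, in an intron of the replication gene Mcm7, and the muscle miRNA mir-1a. mir-106b was between 464 and 638 CPM in control dHC (median 603) and between 333 and 444 CPM in control vHC (median 393), a difference of 0.58 (SE 0.10, adjusted p = 0.000478). mir-1a was between 918 and 1197 CPM in control dHC (median 1087) and between 631 and 899 CPM in control vHC (median 751), a difference of 0.54 (SE 0.10, adjusted p = 0.000538). The muscle miRNA mir-206 was lower, with -0.89 (adjusted p = 0.0241), at no more than 12.8 CPM in any control library, and its call was lost without dHC 14, dHC 32 or vHC 25 (edgeR adjusted p = 0.0856, 0.0734 and 0.0544). mir-202 had the largest estimate of the higher miRNAs, 1.40 (SE 0.26, adjusted p = 0.000517), at 0 to 26.6 CPM in dHC and 2.35 to 11.7 CPM in vHC. The ranges overlapped, and its direction held in 2 of the 3 blocks.

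The mir-15/16 family, which targets cell cycle and survival genes, had 4 of 6 tested miRNAs with its seed higher in dHC. mir-16 was between 7376 and 13619 CPM in control dHC (median 7905) and between 4374 and 8359 CPM in control vHC (median 5620.2), with overlap, and a difference of 0.68 (SE 0.10, adjusted p = 7.80e-05). Control dHC 8 and 14 held its highest values. Over 39 alternatives, among them the fit without these libraries, its difference lay between 0.51 and 0.82, and 2 of the 39 lost the call. Differences of mir-15a and mir-195a were 1.11 (adjusted p = 0.00189) and 0.51 (adjusted p = 0.00327). For mir-15a the libraries spread from 279.7 to 2324 CPM in dHC, with control dHC 8 and 14 at the top. Without them mir-15a was at 0.90 (edgeR adjusted p = 0.0505) and mir-195a at 0.42 (adjusted p = 0.0752). Of the mir-17/92 clusters and their relatives, known for promoting proliferation, 5 of 10 tested members were higher and none lower, with a median of 0.47. mir-93 differed by 0.36 (adjusted p = 0.00621) and mir-17 by 0.52 (adjusted p = 0.0488). The call of mir-17 was lost without any 1 of dHC 8, 14, 18 and 32 and vHC 9, 17, 23 and 25 (adjusted p = 0.0601 to 0.147). It was also lost without dHC 8 and 14 together, where the difference was 0.58 (SE 0.25, edgeR adjusted p = 0.135). Without control dHC 8 and 14, 3 of the 10 were higher, and the median of the 10 was 0.51.

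Both tested oligodendrocyte miRNAs were higher in dHC. mir-338, in an intron of the kinase gene Aatk, was between 2331 and 3700.5 CPM in control dHC (median 2994) and between 1605 and 2479.9 CPM in control vHC (median 1945). mir-219a, which promotes oligodendrocyte differentiation, was between 2118 and 3409 CPM in control dHC (median 2949.7) and between 1589 and 2347 CPM in control vHC (median 2141). Each overlapped between regions, and they differed by 0.51 (SE 0.10, adjusted p = 0.000759) and 0.46 (SE 0.09, adjusted p = 0.00104). Both also passed the test without control dHC 8 and 14, where the median of the pair was 0.57. mir-21a, which is on none of the cell type lists and was named after its values were seen, was higher by 0.65 (adjusted p = 0.00297).

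Lists of other cell types gave few calls. Of 10 neuronal miRNAs, mir-138 was higher by 0.33 (adjusted p = 0.0291) and none was lower. This call was lost without control dHC 8, 18 or 32 or vHC 9 (adjusted p = 0.0570 to 0.0902). Without dHC 8 and 14 together, mir-138 was at 0.32 (SE 0.14, edgeR adjusted p = 0.152). Of 6 miRNAs of microglia and other immune cells, mir-146b was lower, with -0.41 (adjusted p = 0.00928), a call lost without control dHC 8 and 14 (-0.41, edgeR adjusted p = 0.0752). None of 3 endothelial and mural miRNAs was called, and mir-126a had 0.26 (adjusted p = 0.175). The erythroid miRNAs mir-486a and mir-486b, near-identical copies that cannot be counted apart, were lower, with -0.90 and -0.90, while mir-144 and mir-451a of the same list were not called, at 0.45 (adjusted p = 0.199) and 0.21 (adjusted p = 0.167). The 11 let-7 miRNAs, the 2 tested miRNAs of the Hox clusters and the 2 of the mir-183 cluster gave no call, with the smallest adjusted p at 0.108 for let-7e, 0.0822 for mir-10b and 0.817 for mir-182. None of the 5 most abundant miRNAs was called, with -0.02 (adjusted p = 0.958) for mir-9, 0.18 (adjusted p = 0.413) for mir-26a, -0.29 (adjusted p = 0.116) for mir-128, 0.25 (adjusted p = 0.0608) for mir-124 and -0.12 (adjusted p = 0.507) for mir-125b. Some alternatives called mir-124 as higher (11 of 39, adjusted p from 0.0170, among them DESeq2 and 4 other scalings) and mir-128 as lower (3 of 39, adjusted p from 0.00587). Of the 285 miRNAs not called, 261 had a 95% interval within 2-fold and 177 within 1.5-fold.

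All 5 tested miRNAs of the choroid plexus and ciliated epithelium were higher in dHC, with a median difference of 0.62. The choroid plexus makes cerebrospinal fluid and lies next to the hippocampus. mir-204 was between 1413 and 3419 CPM in control dHC (median 1605) and between 1165 and 1673 CPM in control vHC (median 1399), and mir-211 was between 708.2 and 1608 CPM in control dHC (median 826) and between 523 and 839.8 CPM in control vHC (median 689). Control dHC 8 and 14 held the highest values of both, and the differences were 0.57 (SE 0.17, adjusted p = 0.0176) and 0.59 (SE 0.15, adjusted p = 0.00672). Leaving out dHC 8 alone ended the call of mir-204 (0.44, edgeR adjusted p = 0.0614). Without both libraries the differences were 0.12 (edgeR adjusted p = 0.613) and 0.25 (adjusted p = 0.283). mir-34c, of ciliated cells, was between 631 and 856 CPM in control dHC (median 807) and between 180.0 and 663 CPM in control vHC (median 316) and differed by 1.04 (SE 0.20, adjusted p = 0.000628). It was 0.64 without them (edgeR adjusted p = 0.0491), and mir-34b and mir-449a were 0.54 and 0.74 (adjusted p = 0.0752 and 0.0717), so that 1 of the 5 was called. The median of mir-34c was 770 CPM in dHC 8 and 14 and 807 CPM in the other control dHC libraries. For mir-449a these values were 6.71 and 7.49 CPM, and for mir-34b 379 and 233 CPM. In control vHC, mir-34c had a median of 260 CPM in block 1 and 532 CPM in blocks 2 and 3. Without dHC 8 and 14, only blocks 2 and 3 compared the regions. With all libraries mir-449a was at 0.62 (adjusted p = 0.0179), a call lost without dHC 18 (0.41, adjusted p = 0.185) and in DESeq2 (adjusted p = 0.0524). What part the choroid plexus has in these differences was not tested.

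The miRNAs of the Htr2c introns moved with the same 2 libraries. Htr2c is strongly expressed in choroid plexus and also in neurons. mir-448 was at 377 and 567 CPM in control dHC 8 and 14, between 22.5 and 46.2 CPM in the other 4 dHC libraries, and between 57.4 and 96.7 CPM in vHC. Thus 2 dHC libraries were above and 4 below all vHC libraries. With all libraries, 1 of the 4 tested Htr2c miRNAs was lower in dHC, mir-764 with -0.82 (SE 0.27, adjusted p = 0.0293), a call lost without any 1 of dHC 14, 18, 26 and 32 and vHC 13 and 31 (adjusted p = 0.0514 to 0.0812), and mir-448, mir-1264 and mir-1298 had 0.66 (adjusted p = 0.306), 0.07 (adjusted p = 0.903) and 0.79 (adjusted p = 0.247). Without control dHC 8 and 14, all 4 were lower, with differences of -0.96 for mir-448, -1.45 for mir-764, -1.06 for mir-1264 and -0.78 for mir-1298 (edgeR adjusted p = 0.00650, 0.00587, 0.0198 and 0.0192). These 2 libraries were left out after their high values had been seen, so these p-values are not those of a planned test. In the swim libraries, mir-764 was called with -1.18 (SE 0.31, adjusted p = 0.0126), and mir-448, mir-1264 and mir-1298 were not, at 0.10 (SE 0.32, adjusted p = 0.908), -0.71 (SE 0.29, adjusted p = 0.0958) and 0.55 (SE 0.34, adjusted p = 0.267). In swim dHC, mir-448 ranged from 35.98 to 159.8 CPM and mir-204 from 847 to 2677 CPM.

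**Figure D4:**
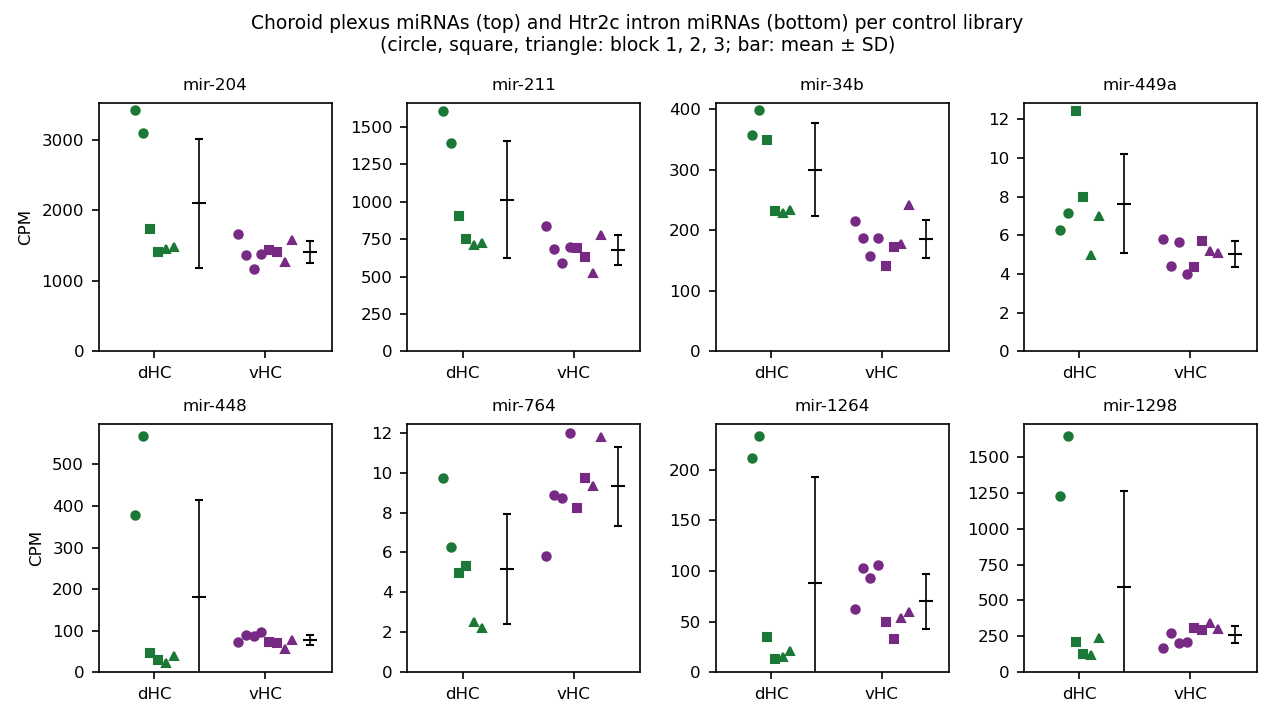
Normalised level (CPM, y axis from 0) of 4 choroid plexus or ciliated epithelium miRNAs (top) and 4 miRNAs of Htr2c introns (bottom) in each control library, with markers for the block and bars for the mean ± SD, cut at 0 where they would go below it. The 2 dHC libraries of block 1 (green circles) lie highest for mir-204, mir-211, mir-448, mir-1264 and mir-1298, and for mir-448 the other 4 dHC libraries lie below all vHC libraries.

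Across the whole comparison, leaving out control dHC 8 and 14 gave 62 miRNAs (16 higher, 46 lower), of which 56 were among the 93. Within the blocks, 91 of the 93 had the same sign in all 3 blocks, against 239 of all 378 (63.2%). The 93 were called on differences within these same blocks, so their agreement between blocks follows largely from that choice. Leaving out 1 library at a time gave 81 to 123 miRNAs, and 70 of the 93 passed in every one of these 14 fits.

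The swim libraries gave the same regions in separate libraries, prepared in the same blocks. There, 80 of 379 tested miRNAs (21.1%) differed between dHC and vHC, 32 higher and 48 lower. All 33 miRNAs higher and 59 of the 60 lower in control dHC had the same sign after swim, and 16 and 40 of them passed the test there. The 56 shared calls were 60.2% of the control calls and 70.0% of the swim calls. Of 374 miRNAs tested in both, 304 had the same sign (81.3%). mir-184 differed by -1.67 (SE 0.24, adjusted p = 0.000149) and mir-1247 by -2.95 (SE 0.28, adjusted p = 2.90e-06) after swim. mir-200b, with -1.35 (SE 0.15, adjusted p = 1.54e-05), mir-187, with 1.20 (SE 0.14, adjusted p = 1.54e-05), and mir-335, with -0.996 (SE 0.12, adjusted p = 1.74e-05), also passed. In the imprinted domain, 47 of 49 tested miRNAs were below 0 after swim, and 20 of the 49 were called lower and 1 higher. mir-202 was not called, with 0.56 (SE 0.34, adjusted p = 0.258), nor was mir-1224, which was lower in control dHC, with -1.13 (adjusted p = 0.000983), and at -0.02 (SE 0.40, adjusted p = 0.981) after swim (edgeR adjusted p = 0.787 for the change itself). A test of whether the region difference itself changed with swim gave 0 of 401 miRNAs (0.0%), while 17 had p under 0.05 before adjustment; the lowest adjusted p in edgeR was 0.787, and DESeq2 also gave 0. The median SE of that change was 0.23 on the log2 scale.

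**Figure D5:**
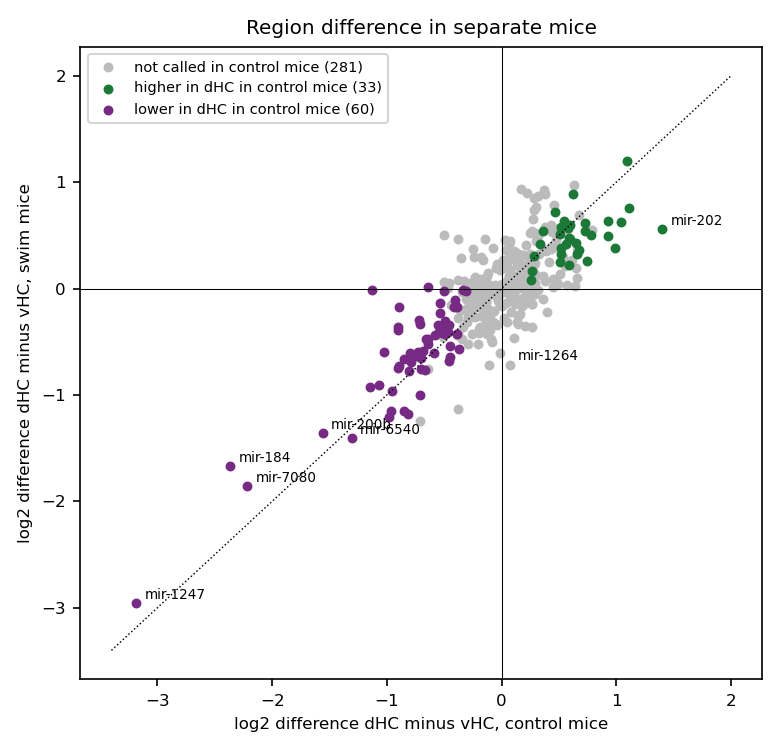
Log2 difference, dHC minus vHC, of each of 374 miRNAs in control libraries (x axis) against that in swim libraries (y axis), with the dotted line where both are equal and colours for the test in control libraries. All 33 green points lie above 0 and 59 of the 60 purple points below 0 on the y axis.

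tRNA-derived and rRNA-derived counts showed no called difference. Of 149 tested entries, 0 (0.0%) passed the test in edgeR, 14 had an unadjusted p under 0.05, and DESeq2 called 1. The smallest p belonged to the CCA end of tRNA-Gly-CCC among reads not matched to the genome, which was between 34.2 and 178.9 CPM in dHC and between 17.1 and 87.8 CPM in vHC. The ranges overlapped, and the difference was 1.12 (SE 0.26, edgeR adjusted p = 0.0911). The 3' end of the same tRNA was at 0.79 (adjusted p = 0.197) and tRNA-Thr-CGT at 0.46 (adjusted p = 0.356). The smallest p below 0 were those of the CCA end of tRNA-Met-CAT, and of tRNA-Trp-CCA and tRNA-Leu-CAG among reads not matched to the genome, at -0.33, -0.40 and -0.52 (each adjusted p = 0.413). Differences were above 0 for 55 of 78 tRNA entries, 44 of 61 tRNA end entries and 1 of 10 rRNA entries. By class, tRNA took 3.97% ± 0.645 (SD, n = 6) of counts in dHC and 3.93% ± 1.07 (SD, n = 8) in vHC, and rRNA 5.05% ± 1.27 and 5.39% ± 0.980, with miRNAs at 90.98% ± 1.74 and 90.68% ± 1.55. Exact permutation tests of these shares, taken on both sides, gave p = 0.940, 0.575 and 0.742, and each was 0.940 after adjustment over the 3 classes. The total miRNA count did not differ detectably either (exact permutation test on log10 totals, p = 0.887).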

How the data were processed

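Adapters were removed by the authors with cutadapt, reads sharing a molecular tag were merged, and Sports assigned them to annotated small RNAs. The deposited table holds expected counts, not normalized, of which 29.5% were not whole. The design had assumed whole counts. Precursor copies of a miRNA were summed to 962 miRNAs and rounded. The miRBase annotation release is not given in the sources used here. The library size was the sum over miRNAs, and scaling was TMM.

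Groups, regions and blocks came from the sample labels, and 0 columns were unmatched. Features with enough counts (filterByExpr by region, minimum count 10, minimum total 15) were tested with edgeR 4.0.16 (quasi-likelihood, block and region, 14 libraries), in R 4.3.3 with limma 3.58.1, DESeq2 1.42.0 and sva 3.50.0 for alternatives, and Benjamini-Hochberg adjusted p under 0.05 was the threshold. No surrogate variables were used in the reported fit. Swim libraries were fitted alike, and the change with swim over 26 libraries. CPM are scaled by TMM. The procedure was tested on simulated data. Plots used Python 3.11.15 and matplotlib 3.10.9. Of 43 pairs of control libraries, none agreed within sampling noise. Total miRNA counts per library set the precision, given as SE and 95% intervals.

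Named miRNAs were the 8 with the smallest p and the 4 with the largest difference in each direction, the 5 most abundant, the member of each list with the smallest p, and, of tRNA and rRNA, the 3 with the smallest p in each direction; others were named after their values were seen. The members and lists were chosen with earlier results of these data known. Positions are from GENCODE M21 on GRCm38 (954 miRNAs matched by name or mature sequence) and mature sequences from RefSeq on GRCm38.p6 (846 miRNAs). A miRNA was placed in an exon where its hairpin touched an exon of any annotated transcript of the host gene, so it can lie in an intron of other transcripts. Alternatives changed the scaling, tool, filter, block, libraries, threshold and handling of copies.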

Additional observations from a re-analysis of the deposited data

Results flagged for a closer look

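Among 172 checks of a group for a single library far from the others, 4 were positive, where chance alone would give about 8.6. In each, 1 library was farther from the nearest other library than the critical share of the range of its group. Such a check can miss 2 libraries that lie apart together. It did not flag mir-448, for which control dHC 8 and 14 were at 377 and 567 CPM. Control dHC 24, the library with the fewest counts, was highest among control dHC for mir-26a (103214 CPM) and for mir-434 (15532 CPM). Control dHC 8 was highest among control dHC for mir-10b (39.6 CPM). Control dHC 18 was lowest among control dHC for mir-21a (8282 CPM).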

How the results depend on the processing

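The miRNA count of 93 lay between 24 and 137 over 40 alternatives, and those within 1.5 times of it covered the scaling, the tool, the filters, surrogate variables, rounding and the threshold. The calls fell to 33, 24 and 29 with block 1, 2 or 3 alone, where fewer libraries entered, and to 50 without control dHC 8, 14 and 24. That alternative and the one without dHC 8 and 14 were chosen after seeing the data. Without 1 library the count was 81 to 123. Splits by direction under other scalings are given above, and TMMwsp gave 41 higher and 57 lower, and library size over all 3 classes 42 and 55. DESeq2 called 119 miRNAs (63 higher, 56 lower). For tRNA and rRNA, 1 entry was called by DESeq2, 0 to 1 without 1 library (1 without control vHC 1), and 2 when adjusted together with the miRNAs. For swim dHC against vHC, 44 were called with no block. Where leaving out 1 library ended the call of a named miRNA, the values stand beside it above. No paired analysis was possible because the labels give each library its own number and no mouse. Each control dHC library has the number after that of a control vHC library of its block, but nothing in the labels says that neighbouring numbers share a mouse, and they were not used as pairs. The direction of miRNAs that were not called turned as follows, on the log2 scale. For mir-9 the difference was 0.061 (DESeq2 size factors), 0.012 (TMMwsp), 0.14 (upper quartile), 0.061 (DESeq2), 0.044 (no filter), 0.018 (no block), 0.024 (library size over miRNA, tRNA and rRNA), 0.031 (stricter filter), 0.034 (2 surrogate variables in place of block), 0.0499 (all 26 libraries), 9.83e-05 (counts unrounded), 0.14 (without block 1), 0.25 (block 2 alone), 0.0705 (block 3 alone), 0.17 (without both control dHC libraries of block 1), and between -0.20 and 0.077 without 1 library. For mir-26a the difference was -0.12 (block 1 alone), and between -0.021 and 0.27 without 1 library. For mir-125b the difference was 0.034 (upper quartile), 0.028 (2 surrogate variables in place of block), 0.062 (block 2 alone), 0.0032 (without both control dHC libraries of block 1). For mir-182 the difference was -0.089 (no block), -0.10 (2 surrogate variables in place of block), -0.092 (block 1 alone), -0.042 (without block 3), and between -0.022 and 0.20 without 1 library. For mir-10b the difference was -0.039 (block 2 alone). For mir-1264 the difference was -0.00491 (DESeq2), -0.72 (2 surrogate variables in place of block), -0.075 (block and log2 total), -1.07 (without block 1), -0.55 (block 2 alone), -1.57 (block 3 alone), -1.06 (without both control dHC libraries of block 1), -0.998 (without both control dHC libraries of block 1 and the shallowest library), and between -0.16 and 0.28 without 1 library. For mir-1298 the difference was -0.79 (without block 1), -0.78 (block 2 alone), -0.79 (block 3 alone), -0.78 (without both control dHC libraries of block 1), -0.70 (without both control dHC libraries of block 1 and the shallowest library). For mir-448 the difference was -0.11 (2 surrogate variables in place of block), -0.96 (without block 1), -0.85 (block 2 alone), -1.06 (block 3 alone), -0.96 (without both control dHC libraries of block 1), -0.91 (without both control dHC libraries of block 1 and the shallowest library). Without 1 library, the difference in share (percentage points) lay between -0.051 and 0.73 for miRNAs and between -0.16 and 0.24 for tRNA, and the difference in log10 total was 0.10 without control dHC 24. The cause of these changes was not tested. The shallowest library, control dHC 24, limits what could be seen for rare miRNAs.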
